A study of Homo sapiens with 21 samples.

Results

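The trefoil factors TFF1, TFF2 and TFF3, the annexin ANXA10, the mucins MUC1, MUC5AC and MUC5B, the cell surface antigens CEACAM5 and CEACAM6, and the mucin-processing protein AGR2 are read in pathology as gastric-type and mucinous genes. These 10 genes were taken by their symbols from the 20111 genes listed in both expression tables. The list was drawn up with earlier results of these data known, so shares of called members below do not come from an unselected list. TFF1, TFF2 and ANXA10 were far higher in untreated EGFR-low PC-9 cells than in EGFR-high or parental cells. In a second experiment with the same cell labels, TFF1, TFF2, MUC5B, CEACAM5 and CEACAM6 were lower in the EGFR-low population, TFF1 and MUC5B less firmly than the others. TFF3 and MUC5AC stayed at or near 0 FPKM throughout.

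Trefoil factors are small secreted peptides that mucous cells release together with gel-forming mucins. In the stomach, TFF1 and the gel-forming mucin MUC5AC come from surface mucous cells, TFF2 from neck and gland mucous cells, and TFF3 is mainly a product of intestinal goblet cells. MUC5B is the main gel-forming mucin of airway glands, MUC1 is a membrane-bound mucin of many epithelia, and AGR2 is a protein disulfide isomerase needed for mucin folding. CEACAM5 (the carcinoembryonic antigen, CEA) and CEACAM6 are surface adhesion proteins, and ANXA10 is a calcium-binding protein found mainly in gastric epithelium. Several of these genes are known markers of invasive mucinous lung adenocarcinoma, in which the lung lineage factor NKX2-1 is often absent.

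PC-9 is a human lung adenocarcinoma cell line with a deletion in exon 19 of EGFR, which all 7 groups carried. EGFR-low and EGFR-high cells were obtained from it by staining for EGFR and sorting the lowest or highest 5 to 10% of cells over 6 sequential rounds, so that each is a selected population and not a clone. Polyadenylated RNA was sequenced in 21 libraries, 3 per group. The untreated groups were parental, EGFR-low and EGFR-high cells harvested 24 h after seeding. The treated groups were EGFR-low and EGFR-high cells given DMSO, the solvent, or 1 µM vorinostat (SAHA), an inhibitor of histone deacetylases, for 72 h. Values are FPKM, fragments scaled to the length of the transcript and the size of the library, so that levels can be set side by side between genes. The 2 experiments were deposited as separate tables and no test was made across them.

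The genes lie in 3 clusters and 3 single positions of GRCh38. The 3 trefoil genes lie within 54928 bases of chromosome 21 (42311667 to 42366594), MUC5AC and MUC5B within 104220 bases of chromosome 11 (1157953 to 1262172), and CEACAM5 and CEACAM6 within 63624 bases of chromosome 19 (41708585 to 41772208). ANXA10 lies on chromosome 4 (168092515 to 168187690), MUC1 on chromosome 1 (155185824 to 155192916) and AGR2 on chromosome 7 (16791811 to 16833433). Of the 50-base words in the longest coding transcript, 20.4% for CEACAM5 and 7.92% for CEACAM6 also occurred in transcripts of other genes, each other's among them. For MUC5AC and MUC5B these shares were 0.434% and 0.453%, and for the other members 0%. Reads from such stretches of the CEACAM genes cannot be told apart by sequence, which adds uncertainty to the lower of both, CEACAM5.

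The RefSeq table of GRCh38.p14 held the bases before the start of ANXA10, MUC1, CEACAM5, CEACAM6 and AGR2. The starts meant here are those of RefSeq, which lie inside the GENCODE spans given above. The 250 bases before the start of CEACAM6 (41755280 to 41755529) and of AGR2 (16805000 to 16805249) fall wholly within those spans. TFF1, TFF2, TFF3, MUC5AC and MUC5B were not matched in it. Shown here are the stretches of CEACAM5 and CEACAM6, because these genes moved together in the libraries, and of ANXA10, because its change was the most precise, each up to the first base that GENCODE annotates as exon. They cover chr19:41708376-41708584, chr19:41755280-41755420 and chr4:168092287-168092514, all on the + strand. Capitals mark the longest run shared by both CEACAM stretches as cut here (14 bases) and, in ANXA10, the TATA box. Over the full 250 bases, both CEACAM genes share a longer run.
CEACAM5: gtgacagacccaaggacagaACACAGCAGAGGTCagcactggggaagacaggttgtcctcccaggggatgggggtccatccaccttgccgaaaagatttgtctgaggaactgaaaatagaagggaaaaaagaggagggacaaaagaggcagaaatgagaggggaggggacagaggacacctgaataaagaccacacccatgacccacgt
CEACAM6: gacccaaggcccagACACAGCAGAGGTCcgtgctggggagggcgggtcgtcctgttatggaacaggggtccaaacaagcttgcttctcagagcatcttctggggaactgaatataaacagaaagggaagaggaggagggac
ANXA10: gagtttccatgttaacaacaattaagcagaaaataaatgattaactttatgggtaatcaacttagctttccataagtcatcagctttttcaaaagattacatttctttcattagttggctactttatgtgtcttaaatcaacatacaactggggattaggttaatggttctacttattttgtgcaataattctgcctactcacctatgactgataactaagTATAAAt
Over all 250 upstream bases, CEACAM5 and CEACAM6 were identical in 190 of 258 aligned columns (73.6%), against 41.4 to 51.1% for the other pairs of these 5 genes. Short motifs were searched on both strands. CACGTG, an E-box, occurred 46 bases before the start in CEACAM5 and 45 bases before it in CEACAM6, and in 6.34% of all 35097 promoters. Neither of these E-boxes lies fully inside the stretches shown. TATAAA occurred 29 bases before the start in ANXA10, 24 before it in MUC1 and 139 before it in CEACAM6, and in 10.7% of all promoters. AGATAA, as read by GATA factors, occurred 119 bases before the start in AGR2 and in 9.17% of all promoters. The AP-1 motif TGANTCA was in none of the 5 and in 6.57% of all promoters. The forkhead motif TGTTTAC was likewise in none of them and in 2.98% of all promoters.

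Some libraries stood apart, and this touches every result of the second experiment. EGFR itself averaged 49.1 ± 19.6 FPKM (SD, n = 3) in the untreated EGFR-low libraries. Its mean in untreated EGFR-high cells was 224 ± 56.7 FPKM (SD, n = 3), and it was likewise lower in EGFR-low cells of the second experiment (log2 fold change -2.13 in DMSO, limma adjusted p = 0.000569). Over 12423 genes, the treated EGFR-high libraries other than DMSO replicate 3 correlated with untreated EGFR-high libraries at r = 0.908 to 0.966. With untreated EGFR-low libraries they correlated at 0.877 to 0.943. The treated EGFR-low libraries other than DMSO replicate 1 correlated with untreated EGFR-low libraries at 0.757 to 0.79. Their correlations with untreated EGFR-high libraries overlapped this range (0.766 to 0.792), as did those with parental libraries (0.719 to 0.781). NKX2-1 was at most 0.069 FPKM in every untreated library, 24.1 to 51.1 FPKM in the treated EGFR-low libraries, 11.1 FPKM in EGFR-high DMSO replicate 3 and at most 0.588 FPKM in the other treated EGFR-high libraries. The summed level of 7 lung alveolar and airway markers was at most 0.249 FPKM in untreated libraries and 27.4 to 55.6 FPKM in EGFR-low DMSO libraries, but NKX2-1 is one of the 7 and made up most of that sum. In the EGFR-low DMSO libraries NAPSA was 0.524 to 3.41 FPKM and FOXJ1 1.27 to 1.66 FPKM, and the other 4 markers (SFTPA1, SFTPB, SFTPC and SCGB1A1) were under 0.1 FPKM. EGFR-low DMSO replicate 1 (r = 0.874 to 0.889 with the other EGFR-high libraries) and EGFR-high DMSO replicate 3 (r = 0.883 to 0.893 with the other EGFR-low libraries) lay between both kinds of cells. All 6 epithelial markers were at 1 FPKM or more in every library. The files give no read counts, but the steps between low values placed the depth of single libraries at 0.715 to 1.5 times the median of the untreated experiment and 0.779 to 1.81 times that of the second, the deepest being EGFR-low DMSO replicate 1.

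In untreated cells, TFF1 was 24.8, 18.5 and 20.7 FPKM in the 3 EGFR-low libraries, 0.499, 0.398 and 0.593 FPKM in EGFR-high, and 0.844, 3.85 and 0.579 FPKM in parental libraries. Every EGFR-low library lay above all others, and parental replicate 2 was the next highest. TFF2, its neighbour on chromosome 21, was 9.79, 15.2 and 9.32 FPKM in EGFR-low, 0.233, 0.82 and 0.437 FPKM in EGFR-high, and 0.844, 2.46 and 0.758 FPKM in parental libraries. The order of the groups was thus the same for both. TFF3, the third gene of the cluster, was listed at 0 in 8 of 9 untreated libraries and was 0.0225 FPKM in EGFR-low replicate 3.

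ANXA10 was 14 FPKM, 18 FPKM and 12.8 FPKM in the EGFR-low libraries, 0.055, 0.128 and 0.163 FPKM in EGFR-high, and 0.362, 0.397 and 0.252 FPKM in parental libraries. The 3 groups did not overlap with each other. Mean levels with their SD over 3 libraries were 14.9 ± 2.73 FPKM in EGFR-low, 0.337 ± 0.0757 FPKM in parental and 0.115 ± 0.0548 FPKM in EGFR-high cells.

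CEACAM6 was the most highly expressed member in all 3 untreated groups. It was 842, 765 and 777 FPKM in EGFR-low, 297, 286 and 225 FPKM in EGFR-high, and 470, 366 and 313 FPKM in parental libraries, with no overlap between any pair of groups. CEACAM5 was far less abundant, at 7.21, 9.61 and 7.08 FPKM in EGFR-low, 2.7, 1.72 and 1.51 FPKM in EGFR-high, and 8.05, 4.65 and 4.44 FPKM in parental libraries. EGFR-high cells had the lowest CEACAM5, whereas EGFR-low and parental libraries overlapped.

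The secreted mucin MUC5B was 8.48, 2.96 and 2.57 FPKM in EGFR-low, 3.07, 3.23 and 5.77 FPKM in EGFR-high, and 0.96, 2.24 and 0.476 FPKM in parental libraries. Both sorted populations lay above the parental cells and overlapped with each other. MUC1 was 1.52, 1.84 and 1.09 FPKM in EGFR-low, 1.52, 2.02 and 1.72 FPKM in EGFR-high, and 0.793, 1.12 and 0.365 FPKM in parental libraries. MUC5AC did not exceed 0.045 FPKM in any untreated library. AGR2 was 69.6, 614 and 68.8 FPKM in EGFR-low, 42.6, 141 and 33 FPKM in EGFR-high, and 49.5, 202 and 43 FPKM in parental libraries. In each group replicate 2 stood far above replicates 1 and 3, and the same libraries had the lowest EGFR of their groups.

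**Figure D1:**
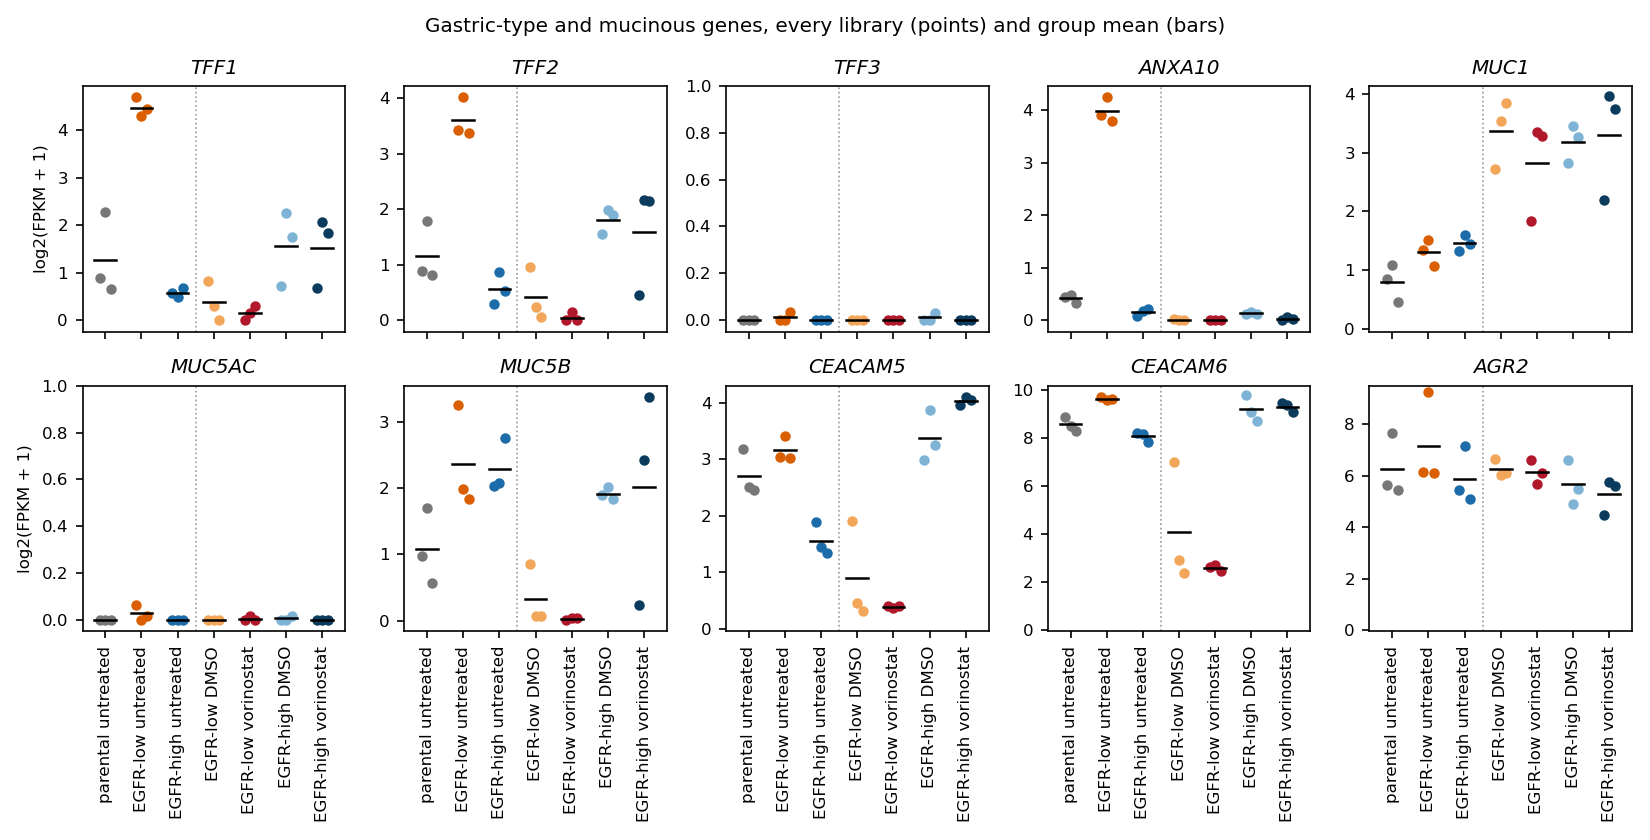
Expression of the 10 genes as log2(FPKM + 1), one panel per gene, with the 7 groups on the x axis, one point per library, a black bar at the mean of the 3 log2 values, and a dotted line between the 2 separately normalized experiments. TFF1, TFF2 and ANXA10 stand out in untreated EGFR-low cells, CEACAM5 and CEACAM6 are low in treated EGFR-low cells except in DMSO replicate 1, and TFF3 and MUC5AC stay near 0.

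The comparison of untreated EGFR-low with EGFR-high cells asked which genes differ with the sorted EGFR level. The 8 members with at least 1 FPKM in at least 3 untreated libraries were tested together with all other such genes, 11305 in total, by limma on log2(FPKM + 1). TFF1 (log2 fold change 3.89, standard error 0.362, limma adjusted p = 0.000162), ANXA10 (3.83, standard error 0.189, limma adjusted p = 2.67e-06) and TFF2 (3.04, standard error 0.301, limma adjusted p = 0.000259) were higher in EGFR-low cells. CEACAM5 (1.60, standard error 0.266, limma adjusted p = 0.00672) and CEACAM6 (1.57, standard error 0.262, limma adjusted p = 0.00688) were higher by smaller amounts, 4.03-fold and 2.95-fold as ratios of mean FPKM. Thus 5 of the 8 members tested passed an adjusted p of 0.05, all of them higher, where 3.81% of all genes tested did. TFF1, TFF2 and ANXA10 entered the test through their EGFR-low libraries, of which the filter on low values needed 3 at 1 FPKM, so their share is a description and not independent of that filter.

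MUC1 (log2 fold change -0.15, limma adjusted p = 0.893) and MUC5B (0.07, limma adjusted p = 0.985) did not pass. AGR2 was 1.28 higher on the log2 scale with a standard error of 0.875 (limma adjusted p = 0.64). With the replicate number as a block, which takes out the shared height of replicate 2, the same difference had a limma adjusted p of 0.0255, and 965 genes instead of 431 passed over all genes. Gene by gene, the exact permutation test returned its smallest possible p with 3 libraries a group, 0.1, for each of the 5 genes called.

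Against parental cells, EGFR-low cells were higher in ANXA10 (log2 fold change 3.56, standard error 0.189, limma adjusted p = 5.7e-06), TFF1 (3.20, standard error 0.362, limma adjusted p = 0.00146) and TFF2 (2.44, standard error 0.301, limma adjusted p = 0.00215). These were 3 of the 8 members tested, where 1.6% of all genes tested were called, and all 3 had again entered the test through their EGFR-low libraries, so that this share is a description too. CEACAM6 (1.07, limma adjusted p = 0.08) and MUC5B (1.28, limma adjusted p = 0.179) did not overlap between the groups but did not pass. The number of all genes tested that lacked overlap was not counted. Parental libraries are shared by this and the next comparison, and EGFR-low libraries by this and the last.

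Between EGFR-high and parental cells, 0 of the 8 members tested passed in limma, where 0.0708% of all genes did (8 genes, with 1093 at an unadjusted p under 0.05). CEACAM5 had the largest difference relative to its error (log2 fold change -1.15, standard error 0.266, unadjusted p = 0.00118, limma adjusted p = 0.314), and its 3 EGFR-high libraries lay below the 3 parental ones. ANXA10 and CEACAM6 were likewise lower without overlap, and MUC1 and MUC5B higher without overlap. ANXA10 was at most 0.397 FPKM in either group. How many of all genes tested lacked overlap was not counted, and the exact permutation test cannot fall below p = 0.1 here. The lack of overlap therefore sets no member apart. TFF1 averaged 0.497 ± 0.0977 FPKM in EGFR-high and 1.76 ± 1.82 FPKM in parental libraries (SD, n = 3 each). For TFF2 these means were 0.497 ± 0.298 FPKM and 1.35 ± 0.958 FPKM. Both differences were within the spread of the parental libraries.

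In the second experiment the order of EGFR-low and EGFR-high cells was the opposite for the trefoil and CEACAM genes. CEACAM6 was 125, 6.56 and 4.22 FPKM in EGFR-low and 890, 534 and 422 FPKM in EGFR-high DMSO libraries. With vorinostat it was 5.26, 5.48 and 4.45 FPKM in EGFR-low and 703, 657 and 545 FPKM in EGFR-high libraries. EGFR-low DMSO replicate 1, the library between both kinds of cells, held far more CEACAM6 than the other 5 EGFR-low libraries, which ranged from 4.22 to 6.56 FPKM.

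CEACAM5 was 2.73, 0.366 and 0.246 FPKM in EGFR-low and 6.9, 13.7 and 8.54 FPKM in EGFR-high DMSO libraries, and 0.312, 0.28 and 0.32 FPKM against 14.5, 16.2 and 15.5 FPKM with vorinostat. No EGFR-low library reached any EGFR-high library of its treatment. TFF1 was 0.781, 0.241 and 0 FPKM in EGFR-low and 0.641, 3.75 and 2.35 FPKM in EGFR-high DMSO libraries, where the groups overlapped, and 0, 0.114 and 0.227 FPKM against 0.602, 3.18 and 2.56 FPKM with vorinostat. TFF2 was 0.938, 0.187 and 0.039 FPKM against 1.93, 2.99 and 2.73 FPKM in DMSO, and 0, 0.106 and 0 FPKM against 0.37, 3.5 and 3.41 FPKM with vorinostat. Neither trefoil gene reached in any treated library the level of the untreated EGFR-low libraries, although the separate normalization of both tables limits that statement.

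MUC5B was 0.81, 0.044 and 0.045 FPKM in EGFR-low and 2.72, 3.03 and 2.56 FPKM in EGFR-high DMSO libraries. With vorinostat it was 0.00357, 0.029 and 0.029 FPKM against 0.17, 4.37 and 9.36 FPKM. The EGFR-high vorinostat libraries thus spread over a wider range than any other group of this experiment. ANXA10 was at most 0.113 FPKM in every treated library and was not tested there, and TFF3 and MUC5AC were listed at 0 in 11 of 12 and 10 of 12 of these libraries.

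MUC1 was 5.61, 10.6 and 13.4 FPKM in EGFR-low and 6.05, 9.96 and 8.61 FPKM in EGFR-high DMSO libraries, and 2.57, 9.25 and 8.77 FPKM against 3.6, 14.6 and 12.5 FPKM with vorinostat. In all 4 treated groups replicate 1 was the lowest. AGR2 was 98.6, 64.3 and 68.9 FPKM in EGFR-low and 96.9 FPKM, 29 FPKM and 44.4 FPKM in EGFR-high DMSO libraries, and 98.4, 49.9 and 68.7 FPKM against 21.4, 52.5 and 48.2 FPKM with vorinostat. For both genes EGFR-low and EGFR-high cells overlapped under each treatment.

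**Figure D2:**
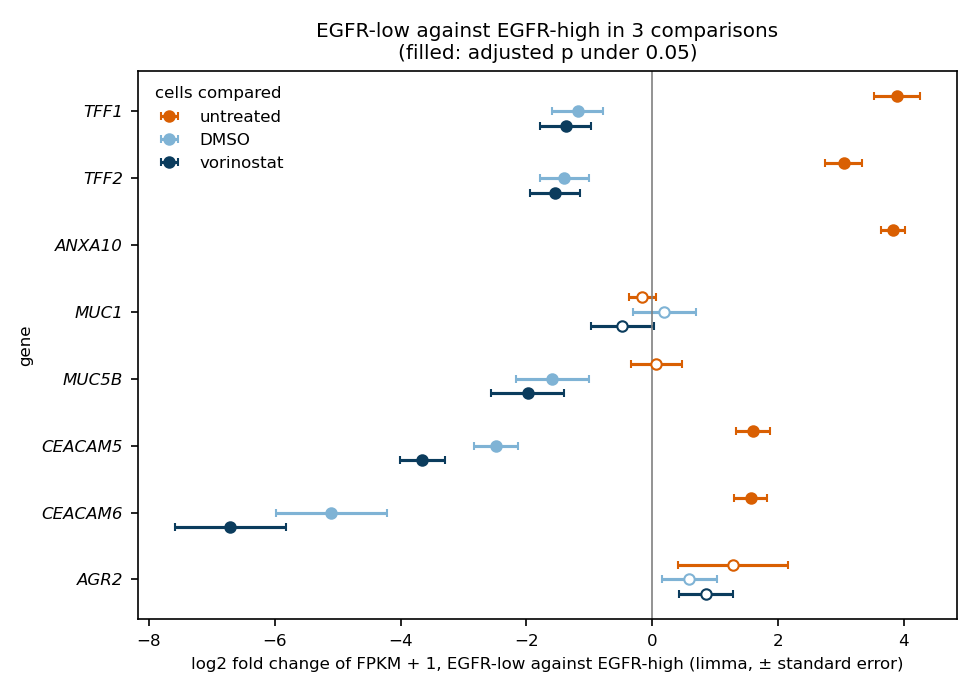
Log2 fold changes of FPKM + 1 between EGFR-low and EGFR-high cells from limma (x axis, with standard errors) for the members tested (y axis), in untreated, DMSO-treated and vorinostat-treated cells, with filled points where the adjusted p was under 0.05. TFF1, TFF2, CEACAM5 and CEACAM6 lie to the right of 0 in untreated cells and to the left in both treated comparisons, and MUC1 and AGR2 have open points throughout.

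In DMSO, CEACAM6 (log2 fold change -5.10, standard error 0.88, limma adjusted p = 0.000739), CEACAM5 (-2.48, standard error 0.353, limma adjusted p = 0.000344), TFF2 (-1.40, standard error 0.394, limma adjusted p = 0.0116), MUC5B (-1.59, standard error 0.58, limma adjusted p = 0.0379) and TFF1 (-1.19, standard error 0.41, limma adjusted p = 0.0297) were lower in EGFR-low cells. That was 5 of the 7 members tested, beside 51.8% of all 12236 genes tested, so that a call alone sets no gene apart here. The median log2 fold change of the 7 members tested was -1.40, beside 0.12 over all genes tested. However, TFF1, TFF2 and MUC5B had reached the filter on low values through EGFR-high libraries alone. Without both intermediate libraries, a setting added after seeing the data, 3 of 7 members and 6051 of all genes tested were called. CEACAM6 was then at -6.78 and CEACAM5 at -3.04, TFF2 at -1.62 (limma adjusted p = 0.0168), while TFF1 (limma adjusted p = 0.0511) and MUC5B (limma adjusted p = 0.0556) were not called. With single libraries left out, TFF1 had a limma adjusted p between 0.00738 and 0.129 and was lost without EGFR-low DMSO replicate 2 or 3 or EGFR-high DMSO replicate 2 or 3. MUC5B had one between 0.0331 and 0.107, and of these 6 fits its call was kept only in that without EGFR-low DMSO replicate 1.

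With vorinostat, TFF1, TFF2, MUC5B, CEACAM5 and CEACAM6 were again lower in EGFR-low libraries. CEACAM6 (log2 fold change -6.71, limma adjusted p = 7.97e-05) and CEACAM5 (-3.65, limma adjusted p = 3.82e-05) changed most. MUC5B (-1.98, limma adjusted p = 0.0117), TFF2 (-1.54, limma adjusted p = 0.00556) and TFF1 (-1.38, limma adjusted p = 0.0127) followed, and TFF1 was not called without EGFR-high vorinostat replicate 2 (limma adjusted p = 0.0551). These are 5 of 7 members tested, with the same dependence on the filter, beside 59% of all genes tested, 4427 higher and 2795 lower (3650 and 3580 after median-of-ratios scaling). That scaling moved the median of all genes by -0.12 in DMSO and by -0.16 with vorinostat, and left each of these 5 genes lower in both.

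**Figure D3:**
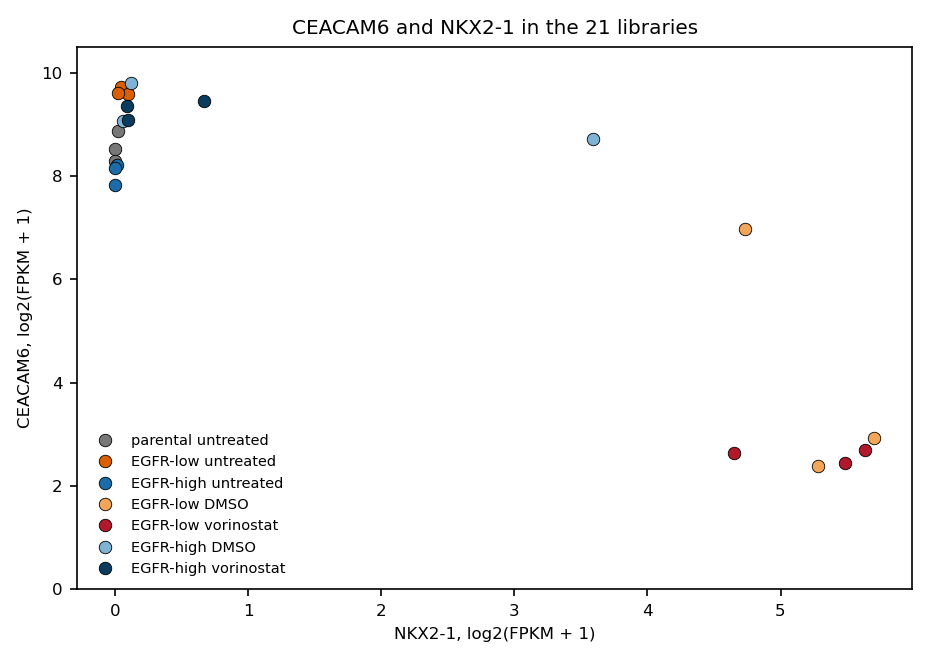
CEACAM6 (y axis) against NKX2-1 (x axis), both as log2(FPKM + 1), one point for each of the 21 libraries, coloured by group. The 5 EGFR-low libraries with 4.22 to 6.56 FPKM of CEACAM6 have 24.1 to 51.1 FPKM of NKX2-1, EGFR-low DMSO replicate 1 and EGFR-high DMSO replicate 3 combine both genes, and the other libraries hold CEACAM6 with little or no NKX2-1.

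NKX2-1 moved with this contrast in the opposite direction to the CEACAM and trefoil genes (38.2 ± 12.8 FPKM in EGFR-low and 3.73 ± 6.35 FPKM in EGFR-high DMSO libraries, SD, n = 3). Its part in the result was not tested. Whether the untreated and the treated EGFR-low cells differ by treatment, time in culture or identity cannot be told apart from these groups. In bulk RNA, fewer cells that express a gene and less RNA per cell cannot be told apart either.

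Vorinostat was compared with DMSO within each sorted population. Whether the drug had acted in these libraries was not checked. An absence of calls therefore cannot show that inhibition of histone deacetylases leaves these genes unmoved. In EGFR-low cells 0 of the 7 members tested passed in limma, where 0% of all genes tested did (115 genes at an unadjusted p under 0.05). CEACAM6 had the largest difference, -1.50 with a standard error of 0.88 (limma adjusted p = 1), and it came to -0.06 without both intermediate libraries. In EGFR-high cells 0 of 7 passed as well, where 0% of all genes did (409 genes at an unadjusted p under 0.05). CEACAM5 was 0.67 higher with vorinostat without overlap (standard error 0.353, limma adjusted p = 0.94). The difference between the vorinostat effects of EGFR-low and EGFR-high cells was called for 0 of 7 members and for 0% of all genes (215 at an unadjusted p under 0.05).

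Replicate 1 of the vorinostat libraries stood apart from replicates 2 and 3. Against the DMSO libraries of the same cells, leaving out the one between both kinds of cells, it correlated at r = 0.974 to 0.975 in EGFR-low and 0.955 to 0.963 in EGFR-high cells, where replicates 2 and 3 reached 0.994 to 0.997 and 0.982 to 0.99. Those DMSO libraries correlated with each other at 0.995 in EGFR-low and 0.985 in EGFR-high cells. Vorinostat replicates 2 and 3 were thus about as like DMSO libraries as these were like each other. The reason why replicate 1 differed was not tested. In EGFR-high cells replicate 1 had the lowest MUC5B, TFF1, TFF2, MUC1 and AGR2 of the 3 vorinostat libraries. Without it, the fitted vorinostat effect in EGFR-high cells was 0.38 for TFF1, 0.34 for TFF2 and 0.99 for MUC5B on the log2 scale, and no member was called.

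The other genes of the same families and tissues gave the context. Of 4 other mucins tested in untreated cells, the membrane-bound MUC4 alone was called (25%, beside 3.81% of all genes tested), at 4.81, 4.53 and 4.23 FPKM in EGFR-low and 1.2, 1.61 and 1.83 FPKM in EGFR-high libraries (log2 fold change 1.12, limma adjusted p = 0.0136). MUC4 was also higher than in parental cells (1.46, limma adjusted p = 0.00603), and in DMSO it was the lower in EGFR-low cells (-0.86, limma adjusted p = 0.00127). Of 20 gastric epithelial genes found, 5 were tested in untreated cells and 1 was called (20%, beside 3.81% of all genes tested). This was VSIG1, an adhesion protein of gastric epithelium, at 3.11, 2.6 and 2.69 FPKM in EGFR-low and at most 0.115 FPKM in EGFR-high libraries (1.80, limma adjusted p = 0.000113). Like TFF1, TFF2 and ANXA10, VSIG1 entered the test through its EGFR-low libraries, so its call is not independent of the filter on low values.

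Other gastric markers did not pass or were near 0. For untreated EGFR-low against EGFR-high cells, the median log2 fold change of the 5 gastric epithelial genes tested was -0.30, beside -0.03 over all genes. Only 2 of the 5 were above 0, VSIG1 and PSCA. PSCA, a surface antigen of gastric mucosa, was 25.3, 34.5 and 31.2 FPKM in untreated EGFR-low and 7.21, 14.8 and 17.5 FPKM in EGFR-high libraries without passing (1.22, limma adjusted p = 0.165), and was lower in EGFR-low cells in DMSO (-3.73, limma adjusted p = 0.000844). CLDN18, a claudin of gastric epithelium, was at most 0.0241 FPKM in any library. Each of 4 chief and parietal cell markers was under 0.1 FPKM in all libraries of 6 groups, with a summed level of at most 0.17 FPKM in any library, and 0 of the 16 intestinal epithelial genes reached the filter in either experiment.

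Genes that handle mucins differed in part. Among 18 tested genes of mucin O-glycosylation, the enzymes that build mucin sugar chains, 2 were higher and 0 lower in the untreated EGFR-low libraries when set against EGFR-high (11.1% called, beside 3.81% of all genes tested). These were B3GNT7 (2.19, limma adjusted p = 0.00215) and GCNT1 (1.14, limma adjusted p = 0.0124), and both were also higher than in parental cells. The median over these 18 genes was 0.34, beside -0.03 over all genes tested. Of 13 tested genes of the secretory cell program 0 were called in untreated cells, among them SPDEF, a regulator of mucous cells, at 8.11, 5.96 and 9.56 FPKM in EGFR-low and 2.65, 5.84 and 9.04 FPKM in EGFR-high libraries. In DMSO, 4 of 13 were lower and 3 higher in EGFR-low cells, a share of 53.8% beside 51.8% of all genes tested, so that the list did not stand apart. SPDEF was among the lower (-1.87, limma adjusted p = 0.00752).

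Transcription factors of the foregut endoderm were not called in untreated cells (0 of 6 tested, beside 3.81% of all genes tested). In DMSO all 10 tested were called, 4 higher and 6 lower in EGFR-low cells, beside 51.8% of all genes tested. SOX2 (4.74), NKX2-1 (3.98), SOX21 (3.60) and FOXA2 (3.56) were the higher ones on the log2 scale. NKX2-1, at most 0.069 FPKM in untreated libraries, was not among the 6 tested there, so the counts cover different sets. In the second experiment NKX2-1 reached 1 FPKM only in EGFR-low libraries and EGFR-high DMSO replicate 3. Its call as higher is therefore not independent of the filter on low values. FOXA1, a pioneer factor of lung and gut epithelium, was lower (-2.63, limma adjusted p = 0.000327). Of 9 tested regulators of trefoil and mucin genes, 0 were called in untreated cells and, in DMSO, 2 were higher and 3 lower (55.6% called, likewise near the share of all genes), among them KLF4 (-1.12, limma adjusted p = 0.00904). Among 11 other annexins, 1 was higher and 3 were lower in untreated EGFR-low cells, with ANXA1, an anti-inflammatory annexin, higher (2.08, limma adjusted p = 0.0193) and ANXA6 lower (-2.09, limma adjusted p = 0.00141). The share of these annexins called was 36.4%, beside 3.81% of all genes tested. Of 3 other CEACAM genes tested, 0 were called, with CEACAM1 at 0.75 on the log2 scale (limma adjusted p = 0.0758).

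**Figure D4:**
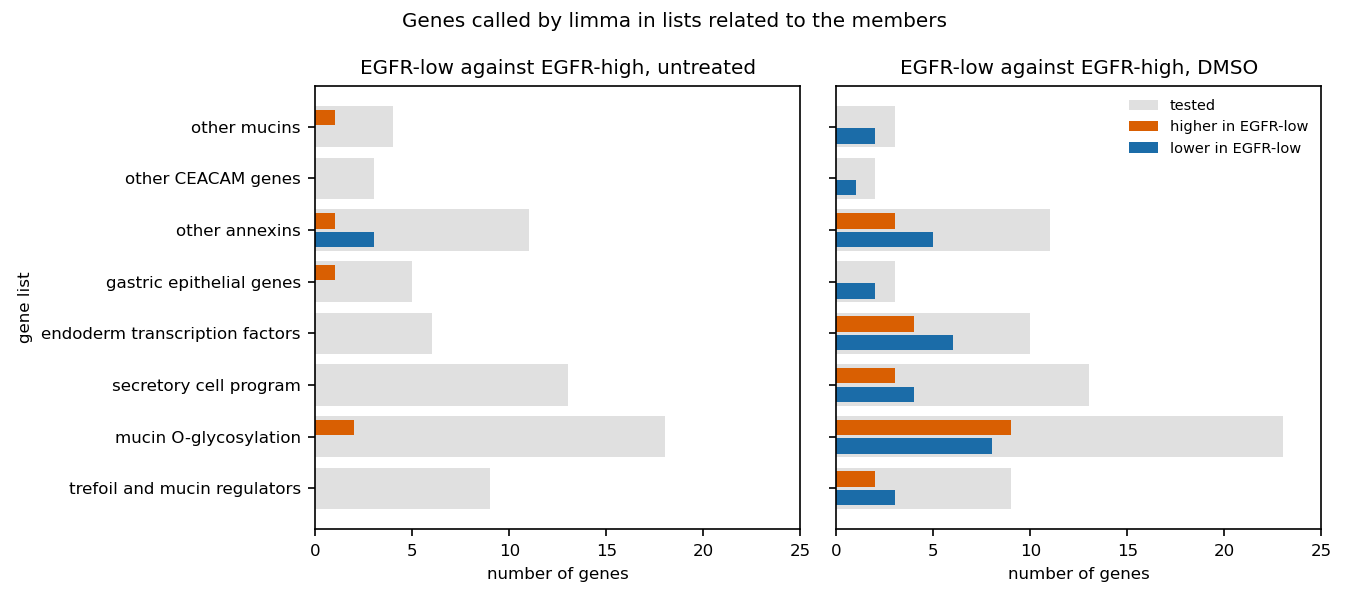
Number of genes tested (grey bars) and called higher or lower in EGFR-low cells against EGFR-high (coloured bars, x axis) in 8 lists of related genes (y axis), for untreated cells on the left and DMSO-treated cells on the right. Few genes were called in any list in untreated cells, and calls in both directions were made in most lists in DMSO, where 51.8% of all genes were called.

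The nearest listed genes on either side of the clusters were read for their own values. ABCG1, a cholesterol transporter 14423 bases beside the trefoil cluster, was 2.91, 2.87 and 1.84 FPKM in untreated EGFR-low and 0.598, 1.22 and 0.701 FPKM in EGFR-high libraries (log2 fold change 0.94, limma adjusted p = 0.0429). In DMSO ABCG1 was lower in EGFR-low cells (-1.65, limma adjusted p = 0.001), as was TMPRSS3, a serine protease 5243 bases on the other side (-1.15, limma adjusted p = 0.00332). The next genes out, UMODL1 and UBASH3A, were at most 0.0191 FPKM.

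Beside MUC5AC and MUC5B, the gastric gland mucin MUC6 was 0.358, 0.365 and 0.0864 FPKM in untreated EGFR-low and 0.921, 1.22 and 1.04 FPKM in EGFR-high libraries, and the intestinal mucin MUC2 was at most 0.142 FPKM. On the other side, TOLLIP, an adaptor of immune signaling, was higher in EGFR-low cells in DMSO (0.93, limma adjusted p = 0.00117) and not in untreated cells (0.19, limma adjusted p = 0.915). BRSK2, a protein kinase, was not tested in untreated cells and was higher in DMSO (1.28, limma adjusted p = 0.00114). Around CEACAM5 and CEACAM6, CEACAM7 was at most 0.226 FPKM, LYPD4 at most 0.0984 FPKM and CEACAM4 was listed at 0 in every library. CEACAM3, a CEACAM of granulocytes that shares 50-base words with CEACAM5, was 2.79, 2.45 and 1.75 FPKM in untreated EGFR-low and 1.59, 0.653 and 1.02 FPKM in EGFR-high libraries (limma adjusted p = 0.47).

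The pairs of neighbouring trefoil and CEACAM genes moved alike. Over the 21 libraries, with the mean of each experiment taken out of log2(FPKM + 1), TFF1 and TFF2 correlated at r = 0.957 and CEACAM5 and CEACAM6 at 0.947, and among 11118 genes TFF1 and TFF2 were each other's nearest. TFF2 and CEACAM6 correlated at 0.638, and AGR2 with no other member above 0.342. These values describe libraries that share groups and experiments, and no test was made on them.

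After its partner, the genes most like TFF1 were EYA4 (r = 0.887) and TMCO3 (0.862), and those most like TFF2 were EYA4 (0.924) and LPAR1 (0.922). CEACAM5 was closest to RNF217 (0.97), ABCC2 (0.966) and AKR1B10 (0.961), and CEACAM6 to the near-identical VCX3B, VCX3A and VCX (0.989 to 0.99). MUC5B was closest to ABCC3 (0.897), SPDEF (0.895) and WNT5A (0.891). MUC1 was closest to ZSWIM3 (0.831), EPHX1 (0.824) and CRABP2 (0.815), and AGR2 to PPA2 (0.935), ETFA (0.933) and HSD17B11 (0.912). By Spearman's rho the nearest gene was the same for TFF1, TFF2 and AGR2.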

How the data were processed

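RNA of 21 PC-9 libraries, 3 per group, was analysed from the values as deposited. The authors deposited one table per experiment, whose naming speaks of Cufflinks gene counts. The values were treated as FPKM as deposited by the authors, a unit inferred from the values, since the columns hold fractions and sum to 467897 to 592942. The submitters' processing notes name STAR 2.5.1b, Cufflinks 2.2.1, DESeq2 1.10.1 and hg19. Positions here are those of GENCODE 29 on GRCh38 and promoters those of RefSeq on GRCh38.p14, matched by symbol, and no coordinate was converted.

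Tests covered the 11305 and 12236 genes that reached 1 FPKM in 3 or more libraries. Version 3.58.1 of limma (R 4.3.3) was applied to log2(FPKM + 1) (mean-variance trend, one mean per group, experiments fitted separately) with Benjamini-Hochberg adjustment over all genes tested and calls at an adjusted p under 0.05. The added 1 makes fold changes of low genes smaller than ratios of FPKM. The exact permutation tests were two-sided. Neither the labels nor the files say that the libraries of a group came from separate cultures, and p-values measure the spread between them. The study describes its replicates as biologically independent. Relative depth was read from the ratio shared by most low values in a pair of libraries. Promoters were aligned with biopython 1.88, and figures drawn with matplotlib 3.10.9.

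The members and lists were chosen with earlier results of these data known. Named were the members, up to 4 called genes of a list with the largest change, the neighbours of the clusters and the 3 genes most like each member tested in both experiments. CLDN18, PSCA, SPDEF, FOXA1, KLF4 and CEACAM1 were added after their values were seen. Alternatives were pseudocounts of 0.1 and 5, no filter, median-of-ratios scaling, a replicate block, each library left out and, added later, both intermediate DMSO libraries left out. The replicate numbers come from the labels. For the comparison of both untreated sorted populations, the residuals of libraries with the same number correlated at 0.343, 0.73 and 0.689. They were 0.353, 0.351 and 0.163 for the sorted populations under vorinostat, and 0.267, 0.302 and 0.329 for vorinostat against DMSO in EGFR-low cells. The numbers thus met the criterion for pairing there, but the values given are those without the block unless the block is named. On simulated data with 200 changed genes, 84.5% of genes changed by 2 log2 units and 0% of those changed by 1 were found in the untreated comparison (95% and 66.5% in DMSO). In the real data 431 genes were called in the untreated and 6334 in the DMSO comparison, so these rates do not carry over. MUC4 (1.12) and GCNT1 (1.14), for example, were called in untreated cells.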

Additional observations from a re-analysis of the deposited data

Results flagged for a closer look

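TFF2, CEACAM5 and CEACAM6 differed in opposite directions between the experiments, and in each experiment no EGFR-low library overlapped with an EGFR-high library. How many of all genes did likewise was not counted. The log2 fold change of TFF2, EGFR-low against EGFR-high, was 3.04 in untreated cells and -1.40 in DMSO. That of CEACAM5 was 1.60 and -2.48, and that of CEACAM6 was 1.57 and -5.10. The difference between the experiments was not tested, because both tables were normalized separately and the treated EGFR-low libraries correlated less with the untreated EGFR-low libraries than the treated EGFR-high libraries did with theirs.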

How the results depend on the processing

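With no filter on low values, limma called 660 genes for EGFR-low against EGFR-high in untreated cells, 331 between EGFR-low and parental cells, 15 between EGFR-high and parental cells, 1 for vorinostat in EGFR-low cells and 1 for the difference of the vorinostat effects. With the replicate block, in the comparison of EGFR-low with EGFR-high cells where the numbers pair the libraries, 965 genes and 6 members were called. Between EGFR-low and parental cells, where 1 of 3 pairs correlated at -0.092 and 4 of 6 libraries were closest to their own number, the block gave 525 genes and also called CEACAM6 (limma adjusted p = 0.0124). It changed no other call of a member. Without both intermediate DMSO libraries 3 members and 6051 genes were called in DMSO. TFF1 (limma adjusted p = 0.056) and MUC5B (0.0727) were not called there without the filter, nor MUC5B with a pseudocount of 5 (0.0878). In the vorinostat comparisons, where no member was called, signs turned without both intermediate libraries for AGR2 in EGFR-low cells (0.064), TFF1 (0.0444) and CEACAM6 (-0.13) in EGFR-high cells and the difference of effects of TFF2 (0.0819) and CEACAM6 (0.0717), and with a pseudocount of 0.1 for MUC5B in EGFR-high cells (-0.35).

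With single libraries left out, 174 to 286 genes and 4 to 5 members were called for EGFR-low against EGFR-high in untreated cells, 33 to 254 genes and 2 to 3 members between EGFR-low and parental cells, 2 to 8 genes between EGFR-high and parental cells, and 4901 to 6193 genes and 3 to 5 members in DMSO. The lower member counts in untreated cells are those without an EGFR-low library, where ANXA10 had 2 libraries at 1 FPKM and was not tested. For members that were not called, the sign turned in some of these fits. Fold changes ran from -0.38 to 0.33 for MUC5B (untreated EGFR-low against EGFR-high), -0.13 to 1.62 and -0.99 to 0.34 for AGR2 (EGFR-low and EGFR-high against parental), and -0.048 to 0.51 and -1.03 to 0.0189 for MUC1 (DMSO and vorinostat). For vorinostat against DMSO they ran from -0.37 to 0.11 for AGR2 in EGFR-low cells. For EGFR-high cells the ranges ran from -0.47 to 0.38 for TFF1, -0.52 to 0.34 for TFF2, -0.20 to 0.68 for MUC1, -0.59 to 0.99 for MUC5B, -0.13 to 0.41 for CEACAM6 and -0.78 to 0.0785 for AGR2. For the difference of the effects they ran from -0.61 to 0.24 for TFF1, -0.71 to 0.15 for TFF2, -1.28 to 0.29 for MUC5B and -0.20 to 0.65 for AGR2. The cause of these moves was not tested. Low FPKM values rest on few reads, and their precision is limited by a depth known only in relative terms.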
